A study of Mus musculus with 18 samples.

Results

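The genes described here are 10 genes of blood vessel endothelium and of the blood-brain barrier, chosen by name: Cldn5, Cdh5, Pecam1, Kdr, Flt1, Tek, Tie1, Emcn, Slc2a1 and Mfsd2a, out of 38355 genes counted. All 10 were among the 16236 genes with enough counts to be tested. RNA was sequenced from cortical tissue dissected at E12.5 from mouse embryos of the C57BL/6 strain, in 18 libraries. There were 4 libraries of wild type (WT), 5 of Dmrt3-/- (Dmrt3 KO), 4 of Dmrt5-/- (Dmrt5 KO) and 5 of Dmrt3-/-;Dmrt5-/- (double KO), with no treatment named for any of them. The labels do not say how the alleles were made, which cells lack the factors, or whether the libraries of a genotype came from separate embryos, so that p-values measure the spread between these libraries. The comparisons ask how vessel transcripts of the cortical tissue differ when Dmrt3, Dmrt5 or both are missing.

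Endothelial cells line the blood vessels that grow into the embryonic cortex from the plexus around it. Vascular endothelial growth factor from the neural tissue acts on receptors such as Kdr, angiopoietins act on Tek, and Wnt7a and Wnt7b from neural progenitors induce barrier properties in the ingrowing vessels. In the mature barrier the junction protein Cldn5 seals the gaps between cells, Slc2a1 carries glucose and Mfsd2a carries lipids and keeps vesicle traffic low. Tissue of this kind is a mixture of neural, vascular, blood and meningeal cells, and in bulk RNA fewer cells of a type and less RNA per cell cannot be told apart.

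The libraries held 19602718 to 33072896 counts each. Levels are normalised read counts (CPM), the count as a share of the library total on the usual scale after correction for library composition. Dmrt3 stood at 52.0 to 61.8 CPM in WT and at no more than 0.398 in the genotypes that lack it by label. Dmrta2, the current symbol of Dmrt5, stood at 159 to 220 CPM in WT. Among libraries labelled as lacking it, Dmrt5 KO replicate 1 held 25.1 CPM and all others 1.7 to 6.9. The cortical markers Emx1 (153 ± 32.4 CPM in WT and 8.51 ± 2.86 in the double KO, SD, n = 4 and 5) and Lhx2 (755 ± 50.1 and 256 ± 39.1) were both present in WT and fell in the double KO (adjusted p 3.16e-08 and 2.03e-07, edgeR), as did Neurog2 and Eomes among 7 of 10 cortical markers. Of the double KO libraries, 2 stood apart in the genes described here: replicate 4 was the highest of all 18 libraries in the mean standardised level of the 10 genes, and replicate 5 the lowest. Calls among the 10 genes, and those among the gene lists and genes named beside them, are given with all libraries and, where they change, without replicate 4. The effect of replicate 5 is given where it changes a call.

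The promoters of 4 of the genes are shown because these genes span the patterns found. Flt1, Emcn and Tek each followed the mean of the other genes of the 10 over the 18 libraries (Pearson's r 0.852, 0.808 and 0.81). Mfsd2a did not (r = -0.182). Each is the 250 bases before the start site in RefSeq (GRCm38.p6), which held entries for 8 of the 10 genes. Capitals mark short motifs searched on both strands. AGGAAG (reverse CTTCCT) and CGGAAG (reverse CTTCCG) are longer forms of GGAA, the core bound by ETS factors. GGAA itself was not searched for. ACGTG (reverse CACGT) is the core bound by hypoxia-inducible factors, and CTTTGA (reverse TCAAAG) the core bound by TCF and LEF factors.
Flt1, chr5:147726012-147726261, minus strand: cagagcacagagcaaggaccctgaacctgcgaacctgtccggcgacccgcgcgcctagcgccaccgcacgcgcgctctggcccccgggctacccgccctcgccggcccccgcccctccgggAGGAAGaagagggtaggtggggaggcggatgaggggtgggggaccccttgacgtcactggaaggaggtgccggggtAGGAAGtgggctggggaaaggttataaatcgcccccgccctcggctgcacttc
Emcn, chr3:137340828-137341077, plus strand: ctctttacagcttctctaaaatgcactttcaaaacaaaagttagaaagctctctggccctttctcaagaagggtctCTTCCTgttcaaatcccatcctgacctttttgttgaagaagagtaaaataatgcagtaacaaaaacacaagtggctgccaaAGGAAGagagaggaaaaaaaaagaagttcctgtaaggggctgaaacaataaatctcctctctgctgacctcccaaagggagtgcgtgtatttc
Tek, chr4:94739039-94739288, plus strand: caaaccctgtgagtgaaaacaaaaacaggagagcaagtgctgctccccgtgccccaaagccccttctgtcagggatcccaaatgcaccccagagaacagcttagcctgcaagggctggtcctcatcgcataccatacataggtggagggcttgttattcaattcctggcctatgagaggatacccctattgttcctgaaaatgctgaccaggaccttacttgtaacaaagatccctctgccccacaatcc
Mfsd2a, chr4:122961189-122961438, minus strand: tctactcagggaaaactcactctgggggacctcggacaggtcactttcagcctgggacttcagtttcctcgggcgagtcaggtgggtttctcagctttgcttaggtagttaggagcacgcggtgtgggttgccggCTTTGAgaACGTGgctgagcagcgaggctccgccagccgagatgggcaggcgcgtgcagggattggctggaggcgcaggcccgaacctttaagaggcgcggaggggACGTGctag
The windows of Flt1 and Emcn each held AGGAAG at 2 places, in Flt1 at 129 and 53 bases and in Emcn at 174 (as CTTCCT) and 93 bases before the start. The Mfsd2a window held ACGTG at 107 and 9 bases and CTTTGA at 115 bases before the start. The Tek window held none of the motifs searched for, though it does hold the shorter GGAA, as its reverse TTCC. Over the 8 windows, AGGAAG was found in 3 (Flt1, Tie1 and Emcn), CGGAAG in 1 (Tie1), ACGTG in 2 (Slc2a1 and Mfsd2a) and CTTTGA in 1 (Mfsd2a). In all 32851 RefSeq windows of this length the shares were 29.5%, 13.6%, 16.6% and 13.8%. No motif shared bases with another in these windows. A match is a description of the letters and not a binding site.

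Compared per kilobase of exon, the levels of the 10 genes in WT ran from 57.2 ± 9.45 CPM per kb for Slc2a1 to 1.90 ± 0.144 for Flt1 (SD, n = 4). Cldn5 came second at 27.8 ± 6.90 CPM per kb, followed by Mfsd2a at 14.9 ± 1.11 and Cdh5 at 14.7 ± 3.17. Tie1 stood at 9.06 ± 1.11, Kdr at 6.99 ± 2.28 and Pecam1 at 5.94 ± 0.861 CPM per kb. Tek at 3.43 ± 1.09 and Emcn at 3.19 ± 1.04 CPM per kb lay just above Flt1. Over all 18 libraries the order by mean was Slc2a1, Cldn5, Mfsd2a, Cdh5, Tie1, Pecam1, Kdr, Emcn, Tek and Flt1. Neighbours in that order were not separated for Mfsd2a and Cdh5 (Mfsd2a above in 13 of 18 libraries), Pecam1 and Kdr (Pecam1 above in 13 of 18) and Emcn and Tek (Emcn above in 14 of 18). Cldn5 was above Mfsd2a in 17 of 18 libraries, and every other neighbour was above the next in all 18. Slc2a1 is also made by erythroid cells and by many other cells, so its level is not that of vessels alone.

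Cldn5 (ENSMUSG00000041378, mm10 chromosome 16, 18776847 to 18778262), the claudin of brain endothelial tight junctions, stood at 33.6, 52.8, 40.4 and 30.8 CPM in the 4 WT libraries. The 5 Dmrt3 KO libraries held 69.7, 47.2, 44.5, 37.3 and 46.7 CPM of Cldn5, and the 4 Dmrt5 KO libraries 50.5, 39.1, 34.3 and 42.1. The 5 double KO libraries held 50.1, 30.5, 30.5, 31.0 and 11.1 CPM of Cldn5. Only double KO replicate 5 lay far below WT; replicate 1 was within the WT range, and the other 3 were close to the lowest WT library. Cdh5 (ENSMUSG00000031871, chromosome 8, 104101625 to 104144511) encodes VE-cadherin, which holds endothelial cells together. Its levels were 68.5, 53, 48.6 and 77.1 CPM in WT, 49.1, 33.2, 55.0, 61.2 and 67.3 in Dmrt3 KO, and 42.5, 40.8, 69.6 and 45.0 in Dmrt5 KO. Cdh5 in the double KO stood at 26.2, 28.8, 23.8, 78.8 and 28.1 CPM. Double KO replicate 4 was above every WT library for Cdh5, and the other 4 were below every WT library. Pecam1 (ENSMUSG00000020717, chromosome 11, 106654217 to 106750628), the endothelial adhesion molecule CD31, stood at 43.7, 33.6, 31.8 and 38.7 CPM in WT and at 34.7, 24.8, 36.6, 43.0 and 44.7 in Dmrt3 KO. It stood at 28.5, 28.0, 51.9 and 35.3 CPM in Dmrt5 KO and at 24.8, 25.2, 24.8, 52.3 and 23.1 in the double KO. The same arrangement was seen for Pecam1 as for Cdh5, with double KO replicate 4 above all WT libraries and the others below them.

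**Figure D1:**
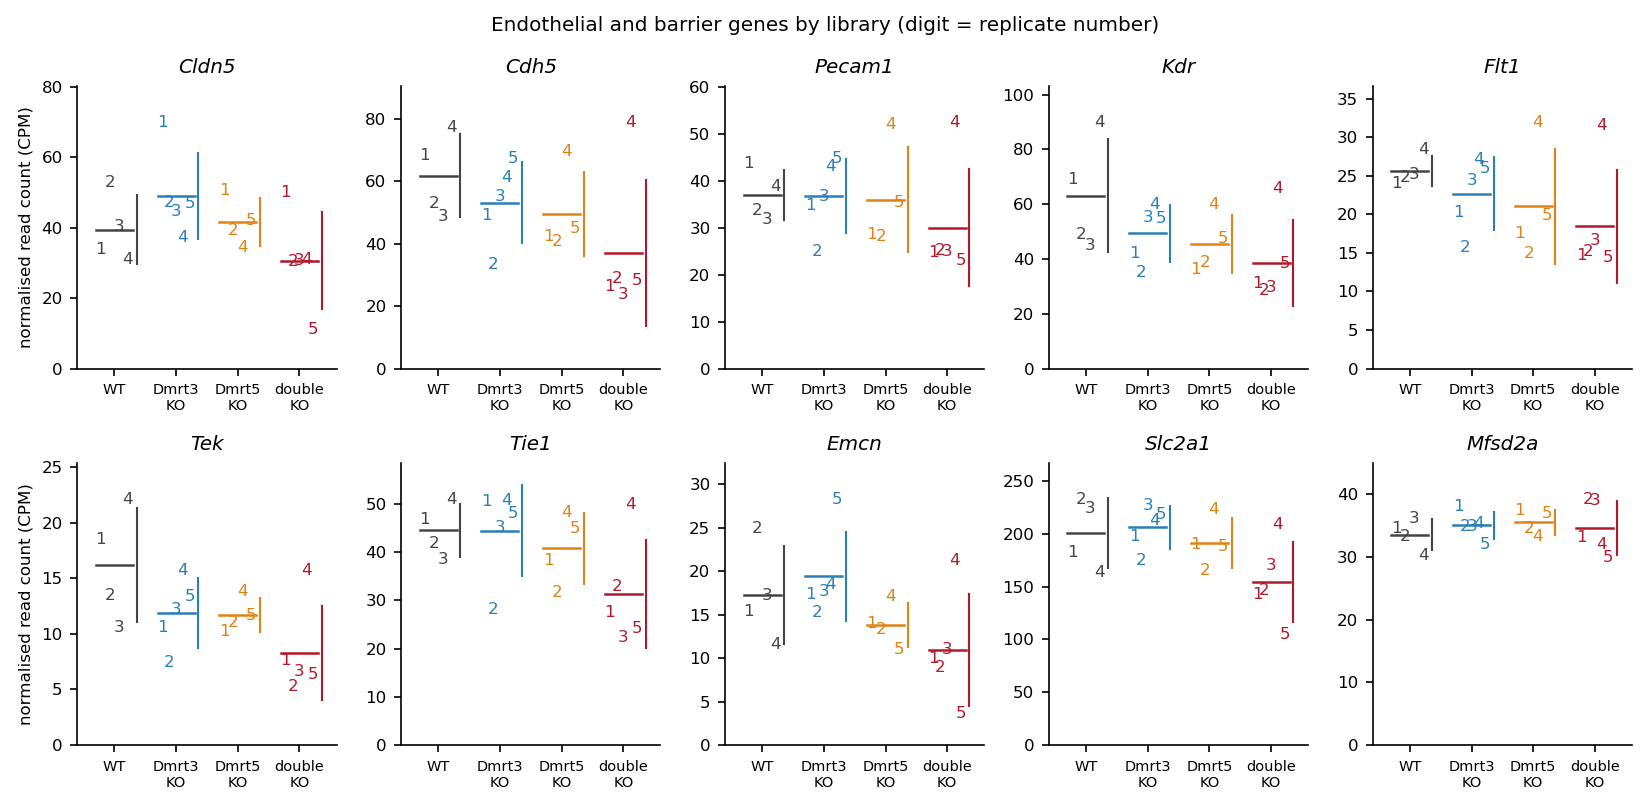
Normalised read count (CPM, linear axis from 0) of each of the 10 genes by genotype; each digit is 1 library and its replicate number, the horizontal line is the mean and the vertical line the SD. Double KO replicate 4 lies at or above the WT mean for 7 of the genes, Cdh5, Pecam1, Kdr, Flt1, Tie1, Emcn and Slc2a1, while most other double KO libraries lie below it, and Mfsd2a hardly varies.

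The receptors of vascular endothelial growth factor were Kdr and Flt1, the first its main signalling receptor in endothelium and the second a receptor that also acts as a decoy. Kdr (ENSMUSG00000062960, chromosome 5, 75932827 to 75978458) stood at 68.8, 48.8, 45.0 and 89.7 CPM in WT and at 42.0, 35.2, 55.0, 59.8 and 54.8 in Dmrt3 KO. It stood at 36.3, 38.6, 59.8 and 47.4 CPM in Dmrt5 KO and at 31.1, 28.5, 29.5, 65.8 and 38.4 in the double KO. WT varied widely for Kdr, and all double KO libraries but replicate 4 were below the lowest WT library. Flt1 (ENSMUSG00000029648, chromosome 5, 147561604 to 147726011) was even in WT, at 24.1, 24.8, 25.2 and 28.4 CPM. It stood at 20.2, 15.7, 24.4, 27.2 and 26.0 CPM in Dmrt3 KO, at 17.6, 14.9, 31.9 and 19.8 in Dmrt5 KO and at 14.7, 15.2, 16.6, 31.5 and 14.4 in the double KO. For Flt1 replicate 4 of both Dmrt5 KO and the double KO was above every WT library, while the remaining libraries of both genotypes were below them.

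The angiopoietin receptor Tek and its partner Tie1 are receptor tyrosine kinases that steady growing vessels. Tek (ENSMUSG00000006386, chromosome 4, 94739289 to 94874976) stood at 18.5, 13.5, 10.6 and 22.1 CPM in WT and at 10.6, 7.43, 12.2, 15.7 and 13.4 in Dmrt3 KO. It stood at 10.2, 11.03, 13.8 and 11.7 CPM in Dmrt5 KO and at 7.58, 5.30, 6.58, 15.7 and 6.32 in the double KO. All double KO libraries but replicate 4 held less Tek than any WT or Dmrt5 KO library. Tie1 (ENSMUSG00000033191, chromosome 4, 118471191 to 118490061) stood at 46.8, 41.8, 38.5 and 51.0 CPM in WT, at 50.5, 28.2, 45.2, 50.7 and 47.9 in Dmrt3 KO and at 38.4, 31.7, 48.3 and 44.8 in Dmrt5 KO. The double KO libraries held 27.6, 32.8, 22.2, 49.97 and 24.2 CPM of Tie1, with replicate 4 inside the WT range and the others below it. Emcn (ENSMUSG00000054690, chromosome 3, 137341067 to 137432185) encodes endomucin, a sialomucin of the endothelial surface. It stood at 15.4, 24.9, 17.1 and 11.5 CPM in WT, at 17.3, 15.3, 17.7, 18.4 and 28.2 in Dmrt3 KO and at 13.9, 13.3, 17.1 and 10.9 in Dmrt5 KO. Double KO libraries held 9.98, 8.86, 10.9, 21.2 and 3.59 CPM of Emcn. Emcn had the widest range of the 10 genes, its highest library being 7.87 times its lowest, and double KO replicate 5 was the lowest.

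The transporters did not share 1 pattern. Slc2a1 (ENSMUSG00000028645, chromosome 4, 119108711 to 119137983), the glucose transporter GLUT1, stood at 182, 233, 224 and 163 CPM in WT and at 197, 174, 227, 213 and 219 in Dmrt3 KO. It stood at 190, 166, 223 and 188 CPM in Dmrt5 KO and at 143, 146, 170, 208 and 105 in the double KO. Of the double KO libraries, 3 were below every WT library and replicates 3 and 4 were inside the WT range. The antisense gene Gm12868 shares 105 of the 3506 exonic bases of Slc2a1 and held 2 to 12 counts per library. Mfsd2a (ENSMUSG00000028655, chromosome 4, 122946850 to 122961188), the lipid carrier of brain endothelium, stood at 34.5, 33.2, 36.1 and 30.2 CPM in WT and at 38.1, 34.9, 34.9, 35.3 and 32.0 in Dmrt3 KO. It stood at 37.3, 34.5, 33.2 and 37.0 CPM in Dmrt5 KO and at 33.1, 39.2, 39.1, 31.9 and 29.9 in the double KO. Mfsd2a had the narrowest range of the 10 genes, with a highest library only 1.31 times the lowest, and every genotype overlapped every other.

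After loss of Dmrt3 alone none of the 10 genes passed the test, where 0.0123% of all tested genes did (edgeR's quasi-likelihood test, Benjamini-Hochberg adjusted p under 0.05 over 16236 genes). Log2 fold changes against WT ran from -0.45 for Tek (SE 0.29, adjusted p = 0.652) to 0.32 for Cldn5 (SE 0.29, adjusted p = 0.678), with a median of -0.0047 against -0.0036 for all tested genes. None had an unadjusted p under 0.05, where 7.16% of tested genes did. Of the 10 values 6 were below 0, as were 50.5% of those of all tested genes. The libraries of Dmrt3 KO and WT overlapped for all 10 genes, where 2.37% of tested genes did not overlap. The intervals leave room for sizeable changes: the 95% interval for Tek ran from -1.06 to 0.17 and that for Cldn5 from -0.30 to 0.94. For Mfsd2a the interval was -0.15 to 0.28. Dmrt3 KO replicate 2 held the least Cdh5, Pecam1, Kdr, Flt1, Tek, Tie1, Emcn and Slc2a1 of its genotype.

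After loss of Dmrt5 alone none of the 10 genes passed the test either, where 1.03% of all tested genes did. The log2 fold changes against WT were below 0 for 8 of the 10, as for 53% of all tested genes, with a median of -0.20 against -0.02. Kdr was lowest at -0.47 (SE 0.28, adjusted p = 0.561), followed by Tek at -0.47 (SE 0.31, adjusted p = 0.61), Cdh5 at -0.32 and Emcn at -0.32. Mfsd2a was highest at 0.08 (SE 0.11, adjusted p = 0.819). None had an unadjusted p under 0.05, where 11.3% of tested genes did. The libraries of Dmrt5 KO and WT overlapped for all 10 genes, where 8.73% of tested genes did not overlap. The Dmrt3 KO, Dmrt5 KO and double KO comparisons share the same WT libraries.

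Loss of both factors gave lower values than WT for 9 of the 10 genes, as for 49.1% of all tested genes, but none passed the test over all 5 libraries, where 6.23% of tested genes did. The largest difference was that of Tek, at 16.2 ± 5.13 CPM in WT (SD, n = 4) and 8.29 ± 4.21 in the double KO (n = 5), or -0.96 on the log2 scale (SE 0.29, adjusted p = 0.0628). Cdh5 stood at 61.8 ± 13.3 and 37.1 ± 23.4 CPM (log2 -0.74, SE 0.31, adjusted p = 0.22). Kdr stood at 63.1 ± 20.6 and 38.7 ± 15.7 CPM (log2 -0.71, SE 0.26, adjusted p = 0.137). These are the VEGF and angiopoietin receptors and the adhesion molecule of vessel walls. Emcn had a log2 fold change of -0.66 (SE 0.35), Tie1 of -0.51 (0.22), Flt1 of -0.47 (0.25), Slc2a1 of -0.38 (0.16), Cldn5 of -0.36 (0.29) and Pecam1 of -0.30 (0.25), with adjusted p from 0.226 to 0.642. Mfsd2a was the exception at 0.05 (SE 0.10, 95% interval -0.17 to 0.26, adjusted p = 0.918). The median over the 10 genes was -0.49 against 0.0064 for all tested genes. An unadjusted p under 0.05 was found for 5 of the 10 (Cdh5, Kdr, Tek, Tie1 and Slc2a1), all lower, where 9.54% of tested genes were lower by that rule. The libraries of both genotypes overlapped for all 10 genes, where 5.97% of tested genes did not.

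**Figure D2:**
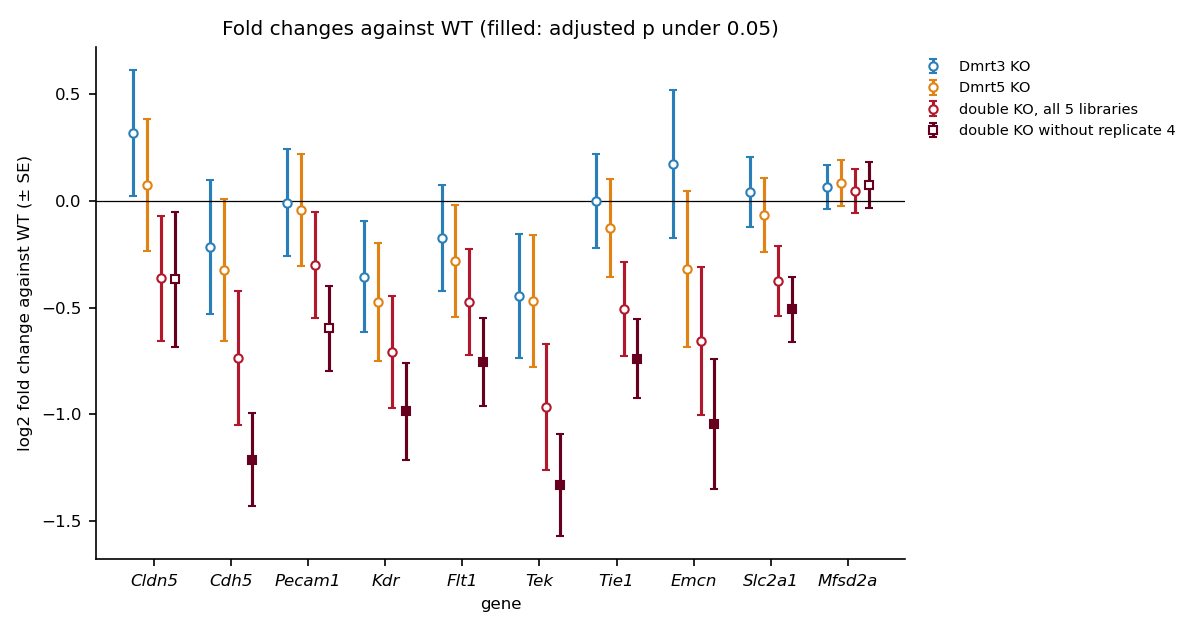
Log2 fold change against WT (points) with its SE (bars) for each gene in Dmrt3 KO, Dmrt5 KO, the double KO with all 5 libraries, and the double KO without replicate 4; filled symbols passed an adjusted p under 0.05. The only filled symbols are 7 of the 10 without double KO replicate 4, and Mfsd2a stays near 0 in all 4 sets.

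In the fit with genotype terms alone, the outcome in the double KO rested on replicate 4. Some other settings of the fit called genes with all double KO libraries, as given below. Without that library, which was singled out after its values were seen, 7 of the 10 genes were called lower than WT, where 7.83% of tested genes were called lower. Tek then had a log2 fold change of -1.33 (adjusted p = 0.00177), Cdh5 of -1.21 (0.00171), Emcn of -1.04 (0.0318), Kdr of -0.99 (0.00917), Flt1 of -0.75 (0.0245), Tie1 of -0.74 (0.0154) and Slc2a1 of -0.51 (0.0383). Pecam1 at -0.60 (adjusted p = 0.0615), Cldn5 at -0.37 (0.569) and Mfsd2a at 0.07 (0.779) were not called. The median of the 10 genes was -0.75 against 0.011 for all tested genes. The remaining 4 double KO libraries lay below all WT libraries for 7 genes (Cdh5, Pecam1, Kdr, Flt1, Tek, Tie1 and Emcn), where 8.78% of tested genes did. Leaving out a library for its high values favours lower values in the rest, so these calls are a description of how far the result depends on 1 library. Without WT replicate 3 Tek alone was called (adjusted p = 0.0436). Without double KO replicate 5, the lowest library, no gene was called.

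Against Dmrt3 KO, all 10 genes had lower values in the double KO, where 49.3% of tested genes did, and none was called, where 3.7% of tested genes were. The libraries overlapped for all 10, where 4.8% of tested genes did not overlap. The lowest was Emcn, at 19.4 ± 5.09 CPM in Dmrt3 KO (SD, n = 5) and 10.9 ± 6.42 in the double KO (n = 5), or -0.83 on the log2 scale (SE 0.33, adjusted p = 0.213). Cldn5 stood at 49.1 ± 12.2 and 30.6 ± 13.8 CPM (log2 -0.68, SE 0.28, adjusted p = 0.224). Slc2a1 stood at 206 ± 20.6 and 154 ± 38.1 CPM (log2 -0.42, SE 0.15, adjusted p = 0.176). These and Tie1 (log2 -0.51) were the 4 genes with an unadjusted p under 0.05, where 7.54% of tested genes were lower by that rule. The median over the 10 genes was -0.46, and Mfsd2a was nearest to 0 at -0.02. Without double KO replicate 4, Cdh5 (log2 -0.99, adjusted p = 0.00676), Tek (-0.88, 0.0224), Tie1 (-0.74, 0.0158), Emcn (-1.22, 0.0149) and Slc2a1 (-0.55, 0.0261) were called lower, where 5.43% of tested genes were. The 4 remaining double KO libraries were below all Dmrt3 KO libraries for Cdh5, Emcn and Slc2a1, where 6.58% of tested genes were.

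Against Dmrt5 KO the double KO was lower for all 10 genes too, where 48.2% of tested genes were, with a median of -0.32. Again none was called, where 0.333% of tested genes were, and all 10 overlapped, where 1.77% of tested genes did not. Tek had the lowest value at -0.49 (SE 0.29, adjusted p = 0.997) and none of the 10 had an unadjusted p under 0.05, where 4.71% of tested genes did. Without double KO replicate 4 none of the 10 was called against Dmrt5 KO either, where 0.486% of tested genes were, and Cdh5, Pecam1 and Tek lay below all Dmrt5 KO libraries, where 4.15% of tested genes did. In that set 8 of the 10 had an unadjusted p under 0.05, all lower, where 6.61% of tested genes were lower by that rule, and the median moved to -0.53. The exceptions were Cldn5 and Mfsd2a. The interaction, which on the log2 scale is the double KO effect beyond the sum of both single KO effects, was called for none of the 10 genes, where 0.142% of tested genes were called. It ran from -0.76 for Cldn5 (SE 0.41, 95% interval -1.63 to 0.12, adjusted p = 0.552) to 0.12 for Kdr (SE 0.37, 95% interval -0.66 to 0.90), and was below 0 for 9 of the 10, where 50.4% of tested genes were. None of the 10 had an unadjusted p under 0.05 for it, where 9.22% of tested genes did. These intervals are wide and include 0. The interaction was again called for none of the 10 without double KO replicate 4, where 0.197% of tested genes were called. It was then below 0 for all 10 with a median of -0.52, and 4 (Cdh5, Tie1, Emcn and Slc2a1) had an unadjusted p under 0.05, where 3.71% of tested genes were lower by that rule.

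Most of the genes varied together from library to library. Over the 18 libraries, which differ in genotype and in tissue content, the 45 correlations between pairs of the 10 genes (Pearson's r of log2 CPM) had a median of 0.65 and ran from -0.55 to 0.94. Among the 8 genes without both transporters the 28 correlations had a median of 0.82 and ran from -0.036 (Cldn5 with Kdr) to 0.94. Kdr and Tek were most alike (r = 0.94), as were Cdh5 with Tek (0.93), Pecam1 with Cdh5 (0.93), Flt1 with Pecam1 (0.93) and Tie1 with Cdh5 (0.92). Emcn was most like Slc2a1 (0.92) and Cldn5 most like Emcn (0.72). Cldn5 followed the others less: its r with their mean was 0.411, and 0.142 with genotype means removed. Mfsd2a was most like Cldn5 (0.43), and its correlation with the mean of the other list of endothelial genes was -0.12 (rho -0.288, and r = -0.498 without the 2 farthest libraries).

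**Figure D3:**
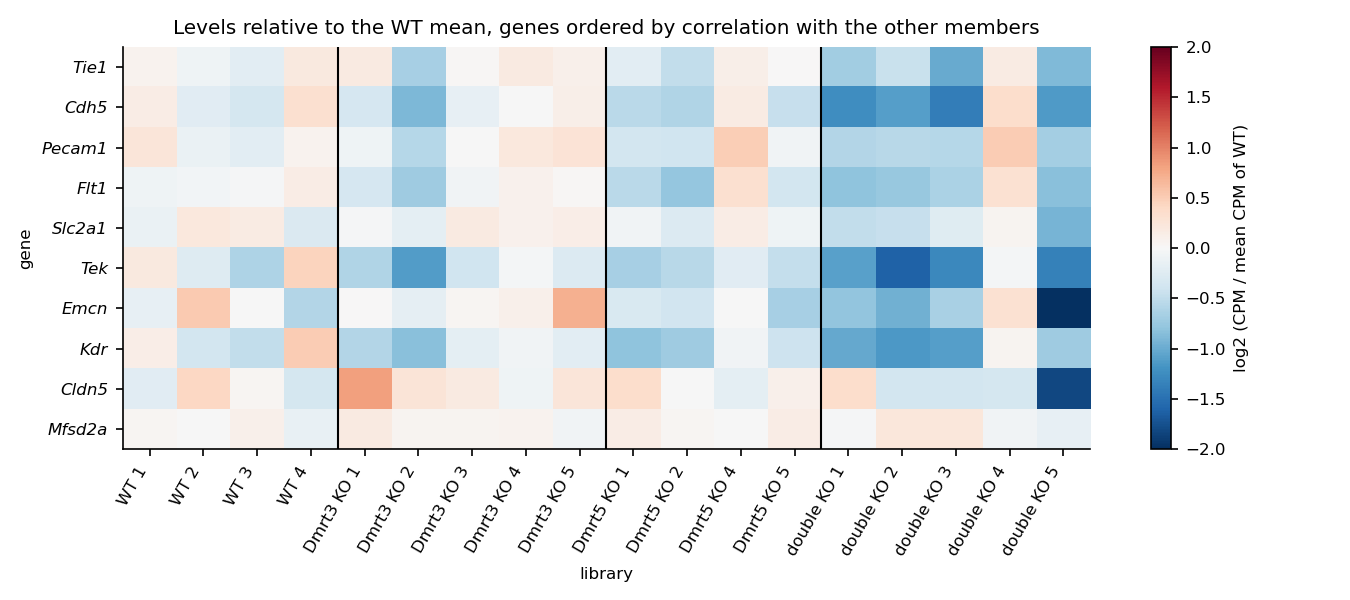
Log2 ratio of each library's CPM to the mean CPM of WT, for the 10 genes (rows, ordered by their correlation with the other genes) in the 18 libraries (columns, by genotype and replicate number); red is above the WT mean and blue below, on a scale from -2 to 2. Double KO replicates 1, 2, 3 and 5 are blue for most genes, double KO replicate 4 is near white or red, and the Mfsd2a row is pale throughout.

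By the mean of the standardised log2 levels of the 10 genes, the lowest library was double KO replicate 5 (-1.86 SD units), followed by double KO replicates 1, 2 and 3 (-0.918, -0.868 and -0.851). Dmrt3 KO replicate 2 (-0.55) and Dmrt5 KO replicate 2 (-0.415) came next. The highest was double KO replicate 4 (0.741), and the WT libraries held 0.244 to 0.554. The 12 other genes most like this mean, among 12789 genes whose log2 CPM averaged at least 1, were Heyl (r = 0.982), Robo4 (0.973), Adcy4 (0.963), Scarf1 (0.961), Col23a1 (0.959), Fam43a (0.959), Clec14a (0.958), Col6a2 (0.958), Igf2 (0.957), Arhgef15 (0.956), Itga11 (0.955) and Col18a1 (0.953). Robo4 and Clec14a are surface receptors of endothelium, Col6a2, Col18a1 and Col23a1 are collagens, and Igf2 is a growth factor. With genotype means removed, 7 of these 12 were still among the nearest 12.

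Most mesenchyme markers, and part of the mural cell markers, moved with these genes. The summed level of 12 mesenchyme markers, all detected in every library save Aldh1a2, at 0 in double KO replicate 5, was 944 to 2552 CPM in WT, 779 to 2979 in Dmrt3 KO and 611 to 1836 in Dmrt5 KO. Its values were 496, 324, 341, 2311 and 129 CPM in double KO replicates 1 to 5, so that replicate 4 was high and replicate 5 lowest here as well. For 12 mural cell markers the sum was 288 to 482 CPM in WT, 246 to 430 in Dmrt3 KO, 235 to 374 in Dmrt5 KO, and 228, 227, 222, 393 and 297 in double KO replicates 1 to 5. Across the 18 libraries the mean of the 10 genes had r = 0.919 with the mean log2 CPM of the mesenchyme list. Spearman's rho was 0.864, and r was 0.834 without the 2 farthest libraries. For the mural list r was 0.933, rho 0.837, and r without the 2 farthest libraries 0.866. In the sums, Notch3 gave 228 of the 297 CPM of mural markers in double KO replicate 5. Single mesenchyme genes ran from r = 0.038 (Crabp2) to 0.942 (Col3a1), with a median of 0.86. Single mural genes ran from 0.045 (Notch3), 0.051 (Rgs5) and 0.115 (Abcc9) to 0.941 (Anpep), with a median of 0.761. Mfsd2a had r = -0.164 with the mesenchyme list, but rho -0.408 and r = -0.715 without the 2 farthest libraries, so that it ran opposite to the list in the other 16. With the mesenchyme score of each library in the fit, the median of the 10 genes in the double KO against WT was -0.08 and none had an unadjusted p under 0.05. That score differs between the genotypes too, so tissue content and genotype cannot be told apart by this fit.

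**Figure D4:**
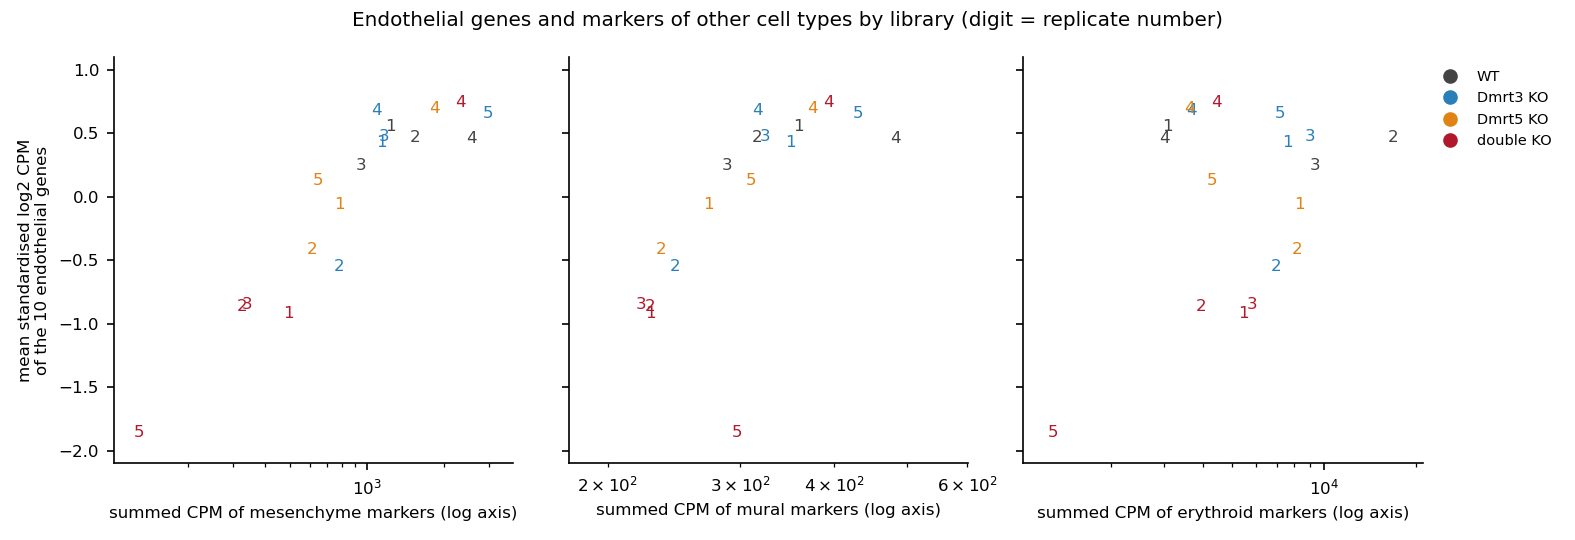
Mean standardised log2 CPM of the 10 genes (vertical axis, SD units) against the summed CPM of mesenchyme, mural and erythroid markers (horizontal axes, log scale); each digit is 1 library and its replicate number, coloured by genotype. Libraries with more mesenchyme transcript mostly lie higher, with double KO replicate 4 at the top and replicate 5 at the bottom. In the mural panel replicate 5 departs from this, with 297 CPM against 222 to 228 in double KO replicates 1 to 3.

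Markers of blood and immune cells moved less closely with the mean of the 10 genes, but closely with some of them. The sum of 10 microglia markers was 68.5 to 81.6 CPM in WT, 78.2 to 130 in Dmrt3 KO, 58.0 to 84.7 in Dmrt5 KO and 31.6 to 88.2 in the double KO. The sum of 12 erythroid markers was 3009 to 16860 CPM in WT, 3685 to 9007 in Dmrt3 KO, 3632 to 8281 in Dmrt5 KO and 1292 to 5817 in the double KO, and its r with the mean of the 10 genes was 0.465. The microglia list had r = 0.65, and r = 0.262 without the 2 farthest libraries. Cldn5 had r = 0.832 with the microglia list and 0.758 with the erythroid list, against 0.632 with the mesenchyme list, and Emcn had 0.875 and 0.76 with the first 2. Choroid plexus transcript was 150 to 348 CPM in WT, 173 to 422 in Dmrt3 KO, 74.3 to 97.9 in Dmrt5 KO and 60.2 to 137 in the double KO. Called lower in the double KO against WT were 0 of 12 mesenchyme, 0 of 12 mural and 0 of 10 microglia genes, 1 of 12 erythroid genes (Slc4a1) and 4 of 6 tested choroid plexus genes (Folr1, Clic6, Ttr and Kcne2), where 3.81% of tested genes were called lower. Without double KO replicate 4 these counts were 9, 6, 1, 2 and 5, where 7.83% of tested genes were, so that the single microglia gene is near that background. Over all libraries the lowest adjusted p of the mural list were those of Acta2 (log2 -2.18, adjusted p = 0.093), Tagln (-1.30, 0.228), Anpep (-1.05, 0.238) and Vtn (-0.90, 0.24). In the mesenchyme list they were those of Dcn (log2 -1.64, adjusted p = 0.181), Aldh1a2 (-1.44, 0.416), Col1a1 (-1.70, 0.456) and Col3a1 (-1.27, 0.473). These 4 mural genes were called lower without double KO replicate 4, as were Col1a1 (log2 -3.89, adjusted p = 0.012) and Col3a1 (-2.93, 0.00615) but not Dcn and Aldh1a2. The macrophage receptor Mrc1 had a log2 fold change of -1.75 (adjusted p = 0.0892, and 0.00189 without that library) and the erythroid enzyme Alas2 one of -1.03 (0.115). The part that the content of the dissected tissue has in the values of the 10 genes was not tested beyond the fit with the mesenchyme score.

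Of 31 further endothelial genes tested, 1 was called in the double KO against WT, Aplnr, the apelin receptor of sprouting vessels, which fell from 59.9 ± 9.68 to 29.8 ± 14.4 CPM (log2 -1.01, SE 0.26, adjusted p = 0.0245), where 3.81% of tested genes were called lower. Lower values than WT were seen for 30 of the 31, where 49.1% of tested genes were lower, with a median log2 fold change of -0.48, close to that of the 10 genes. Sox17, a transcription factor of arteries, had -0.63 (adjusted p = 0.126), Cd93 -0.60 (0.134), Adgrf5 -0.57 (0.141) and Plvap, the diaphragm protein of leaky vessels, -0.48 (0.45). Without double KO replicate 4, 11 of the 31 were called lower, where 7.83% of tested genes were. Among them were Sox17 (log2 -0.83, adjusted p = 0.0171), Cd93 (-0.87, 0.00355) and Adgrf5 (-0.78, 0.0113), and Plvap was not (-0.73, 0.101). In Dmrt3 KO and Dmrt5 KO none of the 31 was called, with medians of -0.02 and -0.18.

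Among 12 tested ligands, receptors and partners of the VEGF and angiopoietin pathways, Vegfc and Plxnd1 fell in the double KO against WT, where 3.81% of tested genes fell. Vegfc, a ligand of Flt4 and Kdr, went from 14.0 ± 1.91 to 5.22 ± 2.91 CPM (log2 -1.42, SE 0.26, adjusted p = 0.00274). Plxnd1, the semaphorin receptor of endothelium that neurons also make, went from 133 ± 30.8 to 60.6 ± 26.2 CPM (log2 -1.14, SE 0.24, adjusted p = 0.00641). The median of this list was -0.0033 and 6 of the 12 values were below 0. Against WT none of the 12 was called in Dmrt5 KO, where the lowest adjusted p was 0.0597. Vegfc stood at 6.30 ± 1.18 CPM in Dmrt5 KO and Plxnd1 at 82.4 ± 11.1, both between WT and the double KO. Vegfa, the main ligand of Kdr, had means within 1 SD of WT in every genotype, with 83.2 ± 38.8 CPM in the double KO, 79.7 ± 26.5 in WT, 70.5 ± 27.8 in Dmrt5 KO and 67.1 ± 19.8 in Dmrt3 KO, and was called in no comparison with WT. The receptor Flt4 stood at 14.0 ± 1.51 CPM in WT and 9.02 ± 4.65 in the double KO (log2 -0.63, adjusted p = 0.204), and the ligand Vegfd at 1.14 ± 0.494 and 0.774 ± 0.289 (log2 -0.54, adjusted p = 0.404). Flt4 was called lower as well without double KO replicate 4 (log2 -1.01, adjusted p = 0.00195), which made 3 of the 12, where 7.83% of tested genes were called lower.

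Of 14 genes of the Wnt route to barrier formation, 1 rose and 2 fell in the double KO against WT, where 2.42% of tested genes rose and 3.81% fell. Wnt7a, the ligand made by neural progenitors, rose from 52.2 ± 7.47 to 79.0 ± 13.4 CPM (log2 0.60, SE 0.13, adjusted p = 0.00927). Lef1, a transcription factor of Wnt signalling that the cortical neuroepithelium also makes, fell from 55.9 ± 7.59 to 23.9 ± 12.4 CPM (log2 -1.23, SE 0.26, adjusted p = 0.00692). Apcdd1, a Wnt inhibitor, fell from 81.3 ± 42.1 to 31.9 ± 8.97 CPM (log2 -1.35, SE 0.38, adjusted p = 0.0431). Both are known outside vessels as well, and the cells that gave these transcripts were not separated. In Dmrt5 KO none of the 14 was called against WT, with Lef1 at 30.6 ± 6.46 CPM, Apcdd1 at 50.8 ± 28.4 and Wnt7a at 69.7 ± 5.64. Wnt7b was at 218 ± 34.5 CPM in WT, 210.1 ± 55.3 in the double KO and 289 ± 39.5 in Dmrt5 KO, with no call. The endothelial co-receptors of Wnt7a and Wnt7b were not called, with Adgra2 at 45.8 ± 17.2 CPM in WT and 26.0 ± 28.6 in the double KO (log2 -0.82, adjusted p = 0.498) and Reck at 19.2 ± 8.24 and 16.7 ± 6.85. Adgra2 rested on double KO replicate 4: without it the log2 fold change was -1.80 (adjusted p = 0.00612), while Reck was still not called (-0.42, 0.492). Without that library 1 of the 14 was called higher and 4 lower, where 4.52% and 7.83% of tested genes were.

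Of 17 tested genes of barrier junctions and transport, 3 fell in the double KO against WT, where 3.81% of tested genes fell. Called lower without double KO replicate 4 were 5 of the 17, where 7.83% of tested genes were. Ocln, the tight junction protein occludin, fell from 2.61 ± 0.454 to 1.22 ± 0.45 CPM (log2 -1.10, SE 0.29, adjusted p = 0.0268). Lsr, a protein of tricellular junctions in endothelium and epithelium, fell from 16.7 ± 2.02 to 9.08 ± 2.77 CPM (log2 -0.88, SE 0.21, adjusted p = 0.0149). Slc16a1, the monocarboxylate transporter MCT1, fell from 62.1 ± 8.78 to 41.0 ± 10.1 CPM (log2 -0.60, SE 0.16, adjusted p = 0.0315). These 3 proteins are also made by epithelia or neural cells. Jam2, a junctional adhesion molecule, had a value above WT (log2 0.40, adjusted p = 0.113). In Dmrt5 KO none of the 17 was called, with a median of -0.38. Slc16a1 stood there at 39.5 ± 3.01 CPM, Lsr at 11.55 ± 0.896 and Ocln at 1.60 ± 0.506. Pdgfrb, the receptor of mural cells that cover brain vessels, stood at 49.3 ± 15.9 CPM in WT and 29.6 ± 23.5 in the double KO (log2 -0.74, adjusted p = 0.37). This too rested on double KO replicate 4, without which Pdgfrb was called lower (log2 -1.37, adjusted p = 0.00498).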

How the data were processed

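The deposited files hold raw counts per Ensembl gene, 1 file per library, with no normalisation by the authors, per the file headers and values. Per the labels' protocols, RNA from RNeasy columns went into TruSeq RNA v2 libraries, a kit that does not mark strand. Per the submitters' processing notes, the aligner STAR 2.3.0e, the counter featureCounts 1.4.6-p1, DESeq2 1.8.2, FastQC 0.10.1, CASAVA 1.8.2 and bcl2fastq were named for build mm10. How these steps were set, including the annotation release, strandedness and multiply matching reads, is not given in the sources used here. Of the deposited identifiers, 36602 matched GENCODE M21 (GRCm38, the assembly of mm10), and the others held 0.397% of counts. Of the 10 genes only Slc2a1 shares exonic bases with another gene.

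The deposited counts were fitted here with edgeR 4.0.16 (R 4.3.3): filterByExpr by genotype, trimmed mean of M-values scaling, and 1 quasi-likelihood fit of the 18 libraries with a term for each genotype. P-values are two-sided and adjusted over 16236 genes (Benjamini-Hochberg), with calls at an adjusted p under 0.05, for which alone "rose" and "fell" are used of genotypes. The SE is the log2 fold change divided by the root of its F statistic. CPM were computed from the deposited counts with these factors, and log2 CPM for scores and correlations with a prior count of 2. Correlations are descriptions, and the libraries behind them share genotype and tissue content. Replicate libraries differed beyond counting noise (chi-square per degree of freedom 11.8 or more in 32 pairs), so all were kept as separate samples. The fit was tested on simulated data with known changes.

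The 10 genes and all other lists were chosen with earlier results of these data known. In every comparison the text names the 10 genes. From each other list it names up to 4 tested genes with the lowest adjusted p against WT, with Vegfa, Wnt7a, Wnt7b, Adgra2, Reck, Plvap and Pdgfrb always, and the 12 genes most like the mean of the 10. Of the genes so named, 1 is not reported here. The list genes Gpihbp1, Angpt4, Slco1a4, Kl and Cldn2 were not among the tested genes. Promoters are RefSeq's, and no sequence is shown for Cdh5 and Pecam1. Those of Cldn5, Kdr, Tie1 and Slc2a1 were searched and are not printed. Alternatives were DESeq2 size factors, the DESeq2 1.42.0 Wald test, no filter, fits on only the genotypes compared, the replicate number as a block, covariates for sex, mesenchyme score and gene length slope, and leaving out each library.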

Additional observations from a re-analysis of the deposited data

Results flagged for a closer look

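In 8 of 40 combinations of gene and genotype, the highest or lowest library was separated from the rest of its genotype by a gap above Dixon's 95% critical value, where chance gives about 1 in 20 and the 10 genes are not independent. In the double KO, replicate 4 stood above the other 4 libraries for 5 genes: Cdh5 at 78.8 CPM, Pecam1 at 52.3 CPM, Kdr at 65.8 CPM, Flt1 at 31.5 CPM and Tek at 15.7 CPM. That library was also the highest of its genotype in summed mesenchyme markers, at 2311 CPM against 129 to 496 in the others, and in summed mural markers, at 393 CPM against 222 to 297. Cdh5 was also high in Dmrt5 KO replicate 4, at 69.6 CPM, where mesenchyme markers summed to 1836 CPM against 611 to 783 in the other Dmrt5 KO libraries. In Dmrt3 KO, Tie1 was low in replicate 2, at 28.2 CPM, and Emcn was high in replicate 5, at 28.2 CPM. Mesenchyme markers were lowest in Dmrt3 KO replicate 2 (779 CPM) and highest in replicate 5 (2979 CPM) of that genotype. The part of mesenchyme content in these values was not tested.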

How the results depend on the processing

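With all 5 double KO libraries, no call among the 10 genes was made by the edgeR fit, and the count of called genes in the double KO against WT was 1 with the DESeq2 Wald test (Tek, adjusted p = 0.0275), 1 with embryo sex as a covariate (Tek, 0.0311; each genotype held both sexes) and 2 with the gene length slope as a covariate (Kdr 0.0183 and Tek 0.0174). Sex was read from Xist and Y-linked transcripts. It was unclear in Dmrt5 KO replicate 1, scored male with 26.7 CPM of Xist. The other libraries held at most 1.42 or at least 462 CPM. With the replicate block the count of called genes was 3 (Cdh5, Kdr and Tek, log2 -0.85, -0.76 and -1.01, adjusted p 0.0309, 0.00837 and 0.00822). The labels do not say what the replicate numbers stand for. Deviations of same-numbered libraries from their genotype means had correlations of -0.357 to 0.703 (median 0.24, above 0.1 in 15 of 24 pairs). Pairs with different numbers had a median of -0.14, so same-numbered libraries were more alike in the median. Of 18 libraries, 4 correlated best with their own number. Whether the numbers pair the libraries cannot be told from these values. The block changed no other count of called genes among the 10. Leaving out each library in turn gave 0 to 7 called in the double KO against WT, 0 to 5 in the double KO against Dmrt3 KO and 0 in the other 4 comparisons. With double KO replicates 4 and 5 both left out, chosen after seeing the data, the counts were 4 and 2. Over all genes, 1012 were called in the double KO against WT, from 368 (only the genotypes compared in the fit) to 3170 (gene length slope), 600 (293 to 1437) against Dmrt3 KO and 54 (21 to 121) against Dmrt5 KO. For Dmrt5 KO against WT the count was 167 (54 to 544), for Dmrt3 KO against WT 2 (2 to 89) and for the interaction 23 (15 to 121).

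Some values changed sign under some settings, none of them called, and the cause was not tested. Many were near 0 in the fit with genotype terms alone, but not all. In that fit Pecam1 was -0.30 in the double KO against WT, and Flt1 was -0.30 against Dmrt3 KO. Emcn was -0.34 in the double KO against Dmrt5 KO. All 3 were above 0 with the mesenchyme score. In Dmrt3 KO against WT, Tie1 was 0.0017 with DESeq2 size factors, 0.0024 with the DESeq2 Wald test, 0.011 with the mesenchyme score and 0.047 with the length slope, which gave 0.055 for Pecam1 and -0.015 for Slc2a1. In Dmrt5 KO against WT, Slc2a1 was 0.0018 with the replicate block and 0.022 with the mesenchyme score, Pecam1 was 0.085 with the mesenchyme score and 0.0044 with the length slope, and Cldn5 was -0.0899 with the slope. In the double KO with the mesenchyme score, Pecam1 was 0.12 and Mfsd2a -0.00048 against WT, Pecam1 0.13 and Flt1 0.12 against Dmrt3 KO, and Pecam1 0.037, Flt1 0.12 and Emcn 0.034 against Dmrt5 KO. Mfsd2a in the double KO against Dmrt3 KO and Dmrt5 KO was 0.018 and 0.0012 without a filter, 0.044 and 0.014 with the length slope, and 0.092 and 0.079 without double KO replicates 4 and 5. For the interaction, Flt1 and Tek were 0.036 and 0.0016 without a filter, 0.22 and 0.14 with sex, and 0.28 and 0.19 with the mesenchyme score. Flt1 was 0.0077 with the replicate block, Cdh5 0.025 with sex and 0.12 with the mesenchyme score, Pecam1 0.042 with that score, and Kdr -0.27 with the length slope and -0.27 without double KO replicates 4 and 5. With each library left out in turn, sign changes arose in Dmrt3 KO against WT for Pecam1 (-0.088 to 0.10), Tie1 (-0.075 to 0.12), Emcn (-0.0023 to 0.40) and Slc2a1 (-0.051 to 0.12), and in Dmrt5 KO against WT for Cldn5 (-0.039 to 0.25), Pecam1 (-0.27 to 0.063) and Slc2a1 (-0.16 to 0.016). They also arose for Mfsd2a in the double KO against WT (-0.0017 to 0.095), Dmrt3 KO (-0.065 to 0.032) and Dmrt5 KO (-0.085 to 0.012), for Flt1 in the double KO against Dmrt5 KO (-0.47 to 0.083), and for the interaction of Cdh5 (-0.67 to 0.011), Kdr (-0.16 to 0.28), Flt1 (-0.29 to 0.26) and Tek (-0.41 to 0.12). Among the 12 genes most like the 10, DESeq2 size factors kept 11. Precision is limited by 4 or 5 libraries per genotype and not by counts.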

Other observations

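The hypoxia and glycolysis genes give a further contrast among the 10 genes. Emcn and Slc2a1 had r = 0.90 and 0.873 with the mean of 16 such genes over the 18 libraries (0.802 and 0.752 without the 2 farthest libraries), whereas Cldn5 had r = 0.688, Kdr 0.231 and Tek 0.342. Emcn and Slc2a1 also had r = 0.875 and 0.727 with the microglia markers and 0.76 and 0.756 with the erythroid markers. The part of those cells in the relation was not tested. Slc2a1 is itself a textbook target of hypoxia-inducible factors. The summed level of the 16 genes was 1286 to 3218 CPM in WT, 1868 to 2397 in Dmrt3 KO, 1373 to 2036 in Dmrt5 KO and 876 to 2004 in the double KO. In the double KO against WT, 1 of the 16 was called by edgeR, where 3.81% of tested genes were called lower. That single call is near this background. It was Ndrg1, which fell from 4.36 ± 2.21 to 1.46 ± 0.99 CPM (log2 -1.58, SE 0.37, adjusted p = 0.014). Hk2, the hexokinase that starts glycolysis, stood at 58.3 ± 6.13 and 40.3 ± 11.3 CPM (log2 -0.53, adjusted p = 0.066), Pdk1 had a log2 fold change of -0.82 (adjusted p = 0.11) and Ldha of -0.75 (adjusted p = 0.16). With double KO replicate 4 left out, 5 of the 16 were called lower, among them Hk2 (log2 -0.69, adjusted p = 0.00431), Pdk1 (-1.13, 0.00677) and Ldha (-0.98, 0.0292), where 7.83% of tested genes were. In Dmrt5 KO none of the 16 was called against WT, with Ndrg1 at 2.01 ± 0.426 CPM.

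Some of the 10 genes, Cldn5 most of all, varied with a measure of each library as a whole. What this measure reflects was not tested. The slope of each library's log2 levels on exonic gene length, in which a higher value means that long transcripts have relatively more counts, had r = -0.837 with Cldn5 (Spearman's rho -0.794, and r = -0.708 without the 2 farthest libraries). Cldn5 has the shortest exonic length of the 10 genes, 1416 bases. The r with this slope was -0.624 for Emcn, -0.582 for Mfsd2a and -0.581 for Slc2a1, which without the 2 farthest libraries became -0.183, -0.13 and -0.109. For the other 6 it ran from -0.028 for Tie1 to 0.39 for Kdr. The slope was highest in double KO replicate 5 (0.326), where Cldn5 was lowest, and next in WT replicate 4 (0.244), the lowest WT library for Cldn5. With the slope in the fit, the log2 fold change of Cldn5 in the double KO against WT was -0.32 (SE 0.18, adjusted p = 0.215, edgeR).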
